A study of Mus musculus with 13 samples.

Results

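Lmo2, Myb, Grap2, Procr and Icam2 are 5 genes known mainly from blood cells and blood vessels, followed here among the 34857 genes measured in Neuro2a, a line grown from a neuroblastoma, a nerve cell tumour of the mouse. They were picked by name because earlier results of these libraries had shown them lower in cells that came through a failed cryostorage, so their differences at both passages are described below and not tested. Experimental vials, frozen in 10% DMSO as a cryoprotectant, lost their liquid nitrogen over 10 h and then stood at 4 °C for 24 h. They went back to -80 °C for 72 h before a thaw at 37 °C. Control vials held the same line in the same medium and stayed in normal cryostorage until they were thawed and plated. Poly(A) RNA was sequenced at passage 1 (4 experimental and 3 control libraries) and at passage 6 (3 experimental and 3 control libraries). The labels do not say whether replicates of a group were separate vials or dishes, so the p-values below measure only the spread between these libraries, which may be technical.

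LMO2 is a LIM-only protein that binds no DNA itself and bridges TAL1 or LYL1, an E protein, a GATA factor and the scaffold LDB1 into one complex, and mouse embryos without it form no blood. MYB is a DNA-binding transcription factor that definitive blood formation in the mouse also needs. GRAP2, also called GADS, is an adaptor of the GRB2 family that joins LAT to SLP-76 behind the T cell receptor. PROCR is the endothelial receptor of protein C, an anticoagulant enzyme, and also marks blood stem cells of the mouse. ICAM2 is an adhesion molecule of endothelium, platelets and leukocytes and a ligand of the integrin LFA-1.

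Libraries differed in transcripts of tissues that a neuroblastoma line would not hold. Levels are FPKM, read fragments scaled by transcript length and library size. Summed over 20 colon epithelium markers they ranged from 8.20 to 209 FPKM in the experimental and from 215 to 498 FPKM in the control libraries of passage 1, and from 8.61 to 115 FPKM in the experimental and from 121 to 282 FPKM in the control libraries of passage 6. Cartilage markers were low in experimental library 4 (7.82 FPKM) and control library 1 (6.42 FPKM) of passage 1 and between 28.6 and 45.6 FPKM in its other 5 libraries, and they spanned 15.6 to 18.3 FPKM in experimental against 31.6 to 55.2 FPKM in control libraries of passage 6. Liver markers summed to 208 and 167 FPKM and myelin markers to 37.7 and 28.0 FPKM in experimental libraries 2 and 3 of passage 6, against at most 1.02 and 8.22 FPKM in all other libraries. All 14 lymphocyte markers stayed below 1 FPKM in every library and summed to 0.450 to 0.621 FPKM in experimental and 0.808 to 1.02 FPKM in control libraries of passage 1, which did not overlap, and to 0.394 to 0.770 and 0.541 to 1.01 FPKM at passage 6, with the leukocyte gene Ptprc at no more than 0.0957 FPKM. In bulk RNA, fewer cells that express a gene and less RNA per cell cannot be told apart. Across the genes tested, the median log2 change was -0.05 at passage 1 and -0.04 at passage 6.

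Promoter sequences are shown to let a reader look for shared letters. The 5 genes were chosen for being lower in experimental libraries, so that they moved together is set by the choice. Shared control of the genes was not tested. RefSeq on GRCm38.p6 gave entries for Myb, Grap2 and Procr. The start RefSeq gives for Grap2 lies inside the gene as annotated here, at 80623483, so its stretch is internal to the gene body given below. Each is printed 5′ to 3′ on the strand of its gene and ends at the base before the RefSeq start (Myb and Grap2) or 100 bases before it (Procr, whose nearer bases overlap an annotated exon). Capitals mark the E-box CAGNTG and the GC box GGGCGG on either strand.
Myb, chr10:21160985-21161234, minus strand: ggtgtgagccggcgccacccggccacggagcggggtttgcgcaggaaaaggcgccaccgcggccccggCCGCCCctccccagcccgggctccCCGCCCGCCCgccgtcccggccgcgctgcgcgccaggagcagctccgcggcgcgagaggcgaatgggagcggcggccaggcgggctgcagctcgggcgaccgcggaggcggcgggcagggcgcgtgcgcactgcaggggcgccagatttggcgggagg
Grap2, chr15:80623233-80623482, plus strand: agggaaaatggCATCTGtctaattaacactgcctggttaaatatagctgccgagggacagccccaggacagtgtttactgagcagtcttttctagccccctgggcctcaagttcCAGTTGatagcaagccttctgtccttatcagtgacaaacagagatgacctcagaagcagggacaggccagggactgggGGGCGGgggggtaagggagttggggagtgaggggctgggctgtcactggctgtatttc
Procr, chr2:155750967-155751116, plus strand: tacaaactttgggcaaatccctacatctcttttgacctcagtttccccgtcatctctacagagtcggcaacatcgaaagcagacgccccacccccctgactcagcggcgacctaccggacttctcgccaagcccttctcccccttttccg

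The Myb stretch holds GGGCGG on the opposite strand 3 times, with first bases at -182, -158 and -154 from the start, the last pair overlapping. The Grap2 stretch holds CAGNTG at -239 and -136 and GGGCGG at -58. Its copy at -136 reads on the opposite strand also as CAACNG, the letters searched for MYB. The Procr promoter has 1 CAGNTG, at -34, outside the printed bases. Over the 250 bases before the start, on both strands, CAGNTG occurred in 44.5% of 27025 promoters, GGGCGG in 32.9% and CAACNG in 29.3%. AGATAA (searched for GATA factors, 10.3% of promoters), AGGAAG (ETS factors, 29.2%) and TGTGGT (RUNX factors, 14.2%) were in none of the 3 promoters.

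Lmo2 (ENSMUSG00000032698, chromosome 2, 103957986 to 103981878, plus strand, GRCm38) was low in the survivors at both passages. At passage 1 it had 2.51, 2.20, 2.06 and 1.52 FPKM in the experimental libraries, against 10.7, 9.96 and 9.34 FPKM in the control libraries. Every experimental library lay far below every control library, with means of 2.07 ± 0.413 (SD, n = 4) and 10.00 ± 0.676 FPKM (SD, n = 3). The control mean was 4.83 times the experimental mean, and the log2 change of FPKM + 1 was -1.85 ± 0.11 (SE), the 10th lowest of 12469 genes tested.

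At passage 6 Lmo2 had 2.36, 2.04 and 1.62 FPKM in the experimental libraries, against 6.03, 5.53 and 6.18 FPKM in the control libraries. The groups did not overlap, with means of 2.01 ± 0.371 and 5.91 ± 0.338 FPKM (SD, n = 3 each). The log2 change was -1.21 ± 0.10 (SE).

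Myb (ENSMUSG00000019982, chromosome 10, 21124935 to 21160984, minus strand) was evenly low in the survivors of passage 1. It had 2.57, 2.58, 2.55 and 2.05 FPKM in the experimental libraries, against 8.96, 8.45 and 8.83 FPKM in the control libraries. The first 3 experimental libraries nearly coincided and library 4 lay below them, far from any control. The means were 2.44 ± 0.258 (SD, n = 4) and 8.75 ± 0.264 FPKM (SD, n = 3), a log2 change of -1.51 ± 0.07 (SE).

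At passage 6 the experimental libraries had 3.86, 3.35 and 3.14 FPKM of Myb, against 5.04, 4.73 and 4.86 FPKM in the control libraries. They still did not overlap, and the mean of the experimental libraries was 70.8% of the control mean, against 27.9% at passage 1. The log2 change was -0.40 ± 0.08 (SE).

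Grap2 (ENSMUSG00000042351, chromosome 15, 80572594 to 80652854, plus strand), the adaptor, had the largest drop of the 5 at passage 1. It had 2.29, 2.13, 2.22 and 1.77 FPKM in the experimental libraries, against 10.8, 11.6 and 10.7 FPKM in the control libraries. All experimental libraries lay between 16.1% and 20.7% of the control mean. With means of 2.10 ± 0.229 (SD, n = 4) and 11.0 ± 0.509 FPKM (SD, n = 3) its log2 change of -1.96 ± 0.07 (SE) was the 6th lowest of all genes tested.

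At passage 6 Grap2 had 4.06, 2.37 and 2.78 FPKM in the experimental libraries, against 6.79, 6.68 and 6.97 FPKM in the control libraries. Experimental library 1 stood above the other two and below every control. The log2 change was -0.96 ± 0.14 (SE). Without experimental libraries 2 and 3, which carried the liver and myelin transcripts, the remaining library gave -0.63.

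Procr (ENSMUSG00000027611, chromosome 2, 155751117 to 155755471, plus strand) was the most abundant of the 5 in control cells and stood nearest to its control level at passage 6. At passage 1 it had 11.4, 8.08, 12.1 and 9.14 FPKM in the experimental libraries, against 37.7, 37.0 and 35.2 FPKM in the control libraries. The experimental libraries lay at 22.1% to 33.1% of the control mean, with means of 10.2 ± 1.89 (SD, n = 4) and 36.6 ± 1.29 FPKM (SD, n = 3). The log2 change was -1.77 ± 0.12 (SE).

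At passage 6 Procr had 40.6, 33.6 and 31.2 FPKM in the experimental libraries, against 44.5, 43.7 and 42.3 FPKM in the control libraries. Every experimental library was still the lower, library 1 by a small margin at 93.4% of the control mean. The log2 change was -0.31 ± 0.09 (SE). Without experimental library 1 it was -0.41, and without libraries 2 and 3 it was -0.10.

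Icam2 (ENSMUSG00000001029, chromosome 11, 106377656 to 106388075, minus strand), the adhesion molecule, had the smallest drop of the 5 at passage 1. It had 12.4, 11.9, 9.46 and 8.94 FPKM in the experimental libraries, against 24.3, 24.2 and 23.8 FPKM in the control libraries. The controls lay within 1 FPKM of each other and the experimental libraries at 37.1% to 51.4% of their mean. The means were 10.7 ± 1.72 (SD, n = 4) and 24.1 ± 0.230 FPKM (SD, n = 3), a log2 change of -1.12 ± 0.11 (SE).

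At passage 6 both groups of Icam2 stood higher in their table. The experimental libraries had 25.5, 21.5 and 22.2 FPKM, against 38.3, 37.4 and 34.0 FPKM in the control libraries. The groups were clearly apart, with experimental libraries at 58.7% to 69.6% of the control mean. The log2 change was -0.65 ± 0.08 (SE).

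**Figure D1:**
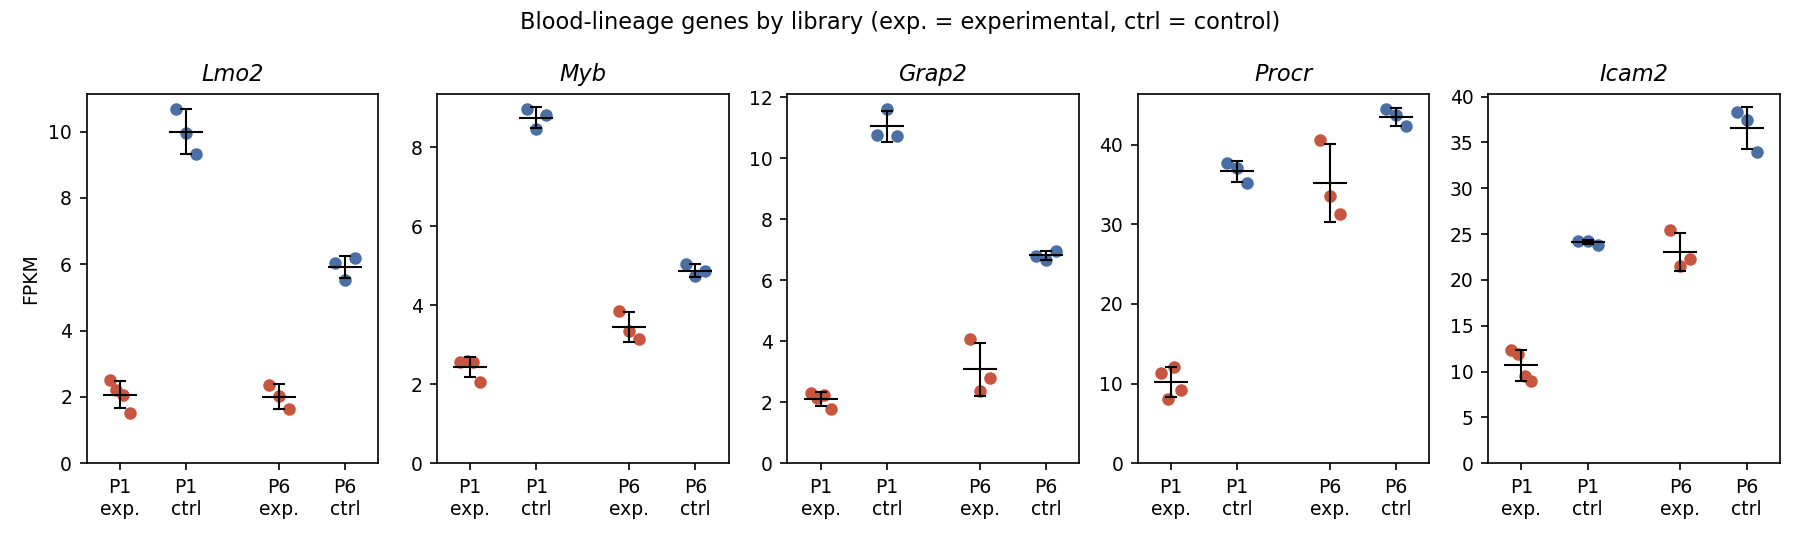
FPKM of each gene in each library (points), with the group mean and SD (bars), for passages 1 (P1) and 6 (P6), experimental (red) left of control (blue). No experimental point reaches a control point of the same passage, and the gap is narrower at passage 6, with Procr at 31.2 to 40.6 against 42.3 to 44.5 FPKM.

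In all 5 genes every experimental library lay below every control at both passages, as it did in 26.9% of 12469 genes at passage 1 and in 24.3% of 12458 genes at passage 6. The 5 genes were chosen with results of both passages known, so nothing is read from this share. Other genes are called changed where the adjusted p of limma, fitted over all genes, is under 0.05. At passage 1, 30.4% of genes were called, 18.9% lower and 11.5% higher. At passage 6, 19.8% were called, 10.8% lower and 8.98% higher. The passage 6 change minus the passage 1 change, on the log2 scale and given without a test, was 1.46 ± 0.17 (SE) in Procr, 1.10 ± 0.10 in Myb, 1.00 ± 0.16 in Grap2, 0.64 ± 0.16 in Lmo2 and 0.47 ± 0.15 in Icam2.

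Relative to the control mean of the same passage, the experimental mean of Lmo2 was 20.7% at passage 1 and 33.9% at passage 6. That of Grap2 was 19.1% and 45.1%, and that of Icam2 44.3% and 63.1%. Myb and Procr, at 27.9% and 27.8% at passage 1, stood at 70.8% and 80.8% at passage 6. Lmo2, second to Grap2 in its drop at passage 1, was thus the lowest of the 5 relative to controls at passage 6. Experimental library 1 was the highest of the 3 experimental libraries of passage 6 in each of the 5 genes.

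**Figure D2:**
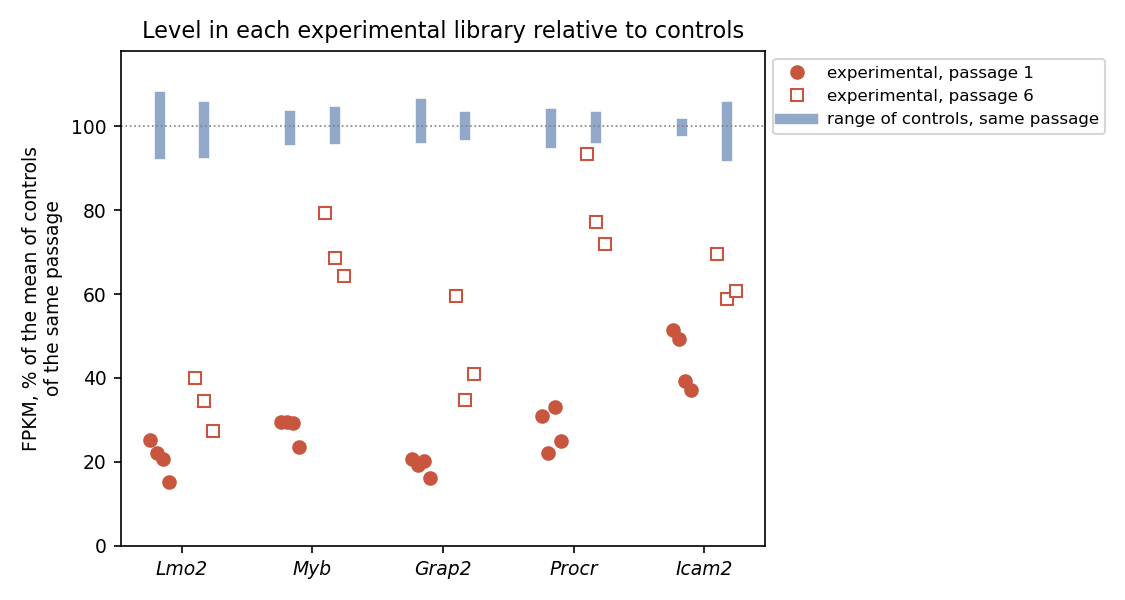
FPKM of each experimental library as a percentage of the mean of the control libraries of its passage (filled circles, passage 1; open squares, passage 6), with the range of the controls as blue bars and a dotted line at 100%. Procr and Myb lie at 71.9% to 93.4% and 64.4% to 79.2% at passage 6, and Lmo2 at 27.4% to 39.9%.

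In FPKM, a scale per transcript length, the levels kept 1 order in all 6 control libraries: Procr, Icam2, Grap2, Lmo2, Myb. In controls of passage 1 the neighbours Grap2 and Lmo2 were 11.0 ± 0.509 and 10.00 ± 0.676 FPKM (SD, n = 3), a gap of the size of their spreads. The order differed in experimental libraries. At passage 1 Lmo2 and Grap2 overlapped there (2.07 ± 0.413 and 2.10 ± 0.229 FPKM, SD, n = 4), as did Procr and Icam2 (10.2 ± 1.89 and 10.7 ± 1.72 FPKM, SD, n = 4). Myb (2.44 ± 0.258 FPKM, SD, n = 4) was above Lmo2 and Grap2 in every experimental library of passage 1, though the ranges overlapped. At passage 6 Myb was again above Lmo2 in all 3 experimental libraries, with means of 3.45 ± 0.373 and 2.01 ± 0.371 FPKM (SD, n = 3). Over the 13 libraries, centred within each table, log2(FPKM + 1) of any 2 of the 5 genes had a Pearson correlation between 0.901 (Procr and Icam2) and 0.983 (Lmo2 and Grap2). The points share their library and group, so this describes the common pattern.

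The colon marker sums did not overlap between the groups at either passage. At passage 6 they were lowest in experimental libraries 2 and 3, where all 5 members were at their lowest of that passage. A fit with this sum as a covariate therefore cannot tell the group and the colon transcripts apart. This holds for the values here and for every call reported below as lost with it. With the logarithm of that sum as a covariate, the passage 6 log2 change was -1.01 in Lmo2, -0.55 in Grap2, -0.50 in Icam2, -0.26 in Myb and -0.07 in Procr. At passage 1 the covariate left changes of -1.79 in Lmo2, -1.5 in Myb, -1.97 in Grap2, -1.89 in Procr and -0.99 in Icam2. In the 5 passage 1 libraries with cartilage transcripts the changes were -1.71, -1.43, -1.92, -1.71 and -1.04, in the same order of genes.

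Markers of cells that normally express the 5 genes were scarce. Besides the lymphocyte list, 10 of 17 myeloid, 8 of 11 blood stem cell and 9 of 17 endothelial markers were below 1 FPKM in every library. Of the endothelial list, the VEGF receptor gene Kdr had at most 0.0536 FPKM and the endothelial cadherin gene Cdh5 at most 0.580 FPKM. Pecam1 had 1.06 to 2.52 FPKM and Ecscr 2.22 to 4.86 FPKM, and Eng, a TGF-beta coreceptor, was well expressed. Eng averaged 11.9 ± 1.31 against 11.6 ± 0.568 FPKM at passage 1 (limma adjusted p = 0.802) and 23.1 ± 3.19 against 23.0 ± 0.787 FPKM at passage 6 (adjusted p = 0.983). Endothelial markers summed to 30.0 to 35.3 FPKM in experimental and 34.4 to 35.8 FPKM in control libraries of passage 1, and to 47.3 to 54.3 and 55.3 to 58.1 FPKM at passage 6. Egfl7, a secreted endothelial factor, was lower in the survivors at passage 1 (10.3 ± 1.39 against 15.4 ± 0.310 FPKM, limma adjusted p = 0.00397) and at passage 6 (16.3 ± 0.935 against 20.8 ± 0.644 FPKM, adjusted p = 0.0097), where it lost its call with the colon covariate (adjusted p = 0.097) or without control library 2. Plvap, of endothelial diaphragms, was higher at passage 1 (adjusted p = 0.0232), a call lost in 7 of 19 other settings, among them the colon covariate (adjusted p = 0.0904). The endothelial surface gene Ecscr was lower at passage 6 (adjusted p = 0.0408), a call lost under each other scaling of the libraries.

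The red cell list had 0 of 5 tested genes called at either passage by limma (1 and 0 at an unadjusted p under 0.05), with sums of 3.44 to 40.9 FPKM in experimental and 8.51 to 39.4 FPKM in control libraries of passage 1, and of 6.03 to 28.5 and 7.88 to 18.9 FPKM at passage 6. Its highest genes were the globins Hbb-bs and Hba-a1, whose adjusted p at passage 1 were 0.638 and 0.696. The myeloid list also had 0 genes called by limma, of 3 and 2 tested (0 also at an unadjusted p under 0.05), among them Coro1a (3.16 ± 0.441 against 3.58 ± 0.277 FPKM at passage 1). Of all genes, 30.4% were called at passage 1 and 19.8% at passage 6. With so few genes tested, nothing is read from the 0 calls of either list. Myeloid sums were 4.59 to 11.4 against 7.59 to 15.5 FPKM at passage 1 and 9.02 to 11.0 against 6.03 to 7.85 FPKM at passage 6. At passage 6 the platelet chemokine gene Pf4 (1.17 ± 0.147 against 2.07 ± 0.493 FPKM, adjusted p = 0.0379) and the stem cell surface gene Ly6a (0.964 ± 0.285 against 3.12 ± 1.39 FPKM, adjusted p = 0.0378) were lower, each keeping its call under 8 of 18 other settings. They were 1 of 2 platelet and 1 of 1 stem cell markers tested, beside 10.8% of all genes called lower. Itgb3, the other platelet marker tested, was not called (limma adjusted p = 0.662). Stem cell markers summed to 2.75 to 9.48 FPKM in experimental and 2.73 to 6.14 FPKM in control libraries of passage 6. Platelet markers summed to 19.0 to 22.0 and 22.3 to 23.65 FPKM there.

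The relatives of LMO2 did not share its change. Lmo1 and Lmo4, LIM-only genes with roles in the nervous system, were both higher in the survivors at passage 1, at 43.6 ± 3.29 against 32.5 ± 1.19 FPKM (limma adjusted p = 0.00302) and 10.8 ± 1.04 against 7.67 ± 0.222 FPKM (adjusted p = 0.00421). At passage 6 Lmo4 was again higher, at 5.74 ± 0.501 against 3.30 ± 0.297 FPKM (adjusted p = 0.0039), and Lmo1 did not pass (adjusted p = 0.106). These directions held under 3 other scalings of the libraries. Lmo3 stayed below 1 FPKM in every library.

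Among 17 genes of the LMO2 complex and its partners 13 were tested. At passage 1, 3 of them were lower and 2 higher, with a median log2 change of -0.04. Of all genes tested, 18.9% were called lower and 11.5% higher. The lower ones were Lyl1, Cbfa2t3 and Tal1. Lyl1, a basic helix-loop-helix factor, had 0.546, 0.749, 1.03 and 0.527 FPKM in the experimental libraries of passage 1, against 2.49, 2.84 and 2.55 FPKM in the control libraries, with no overlap (log2 change -1.09 ± 0.11 SE, adjusted p = 0.000572). Cbfa2t3, also called ETO2, a corepressor of the complex, averaged 2.61 ± 0.146 against 5.54 ± 0.0605 FPKM (log2 change -0.86, adjusted p = 7.89e-05). Tal1 averaged 3.23 ± 0.405 against 4.47 ± 0.249 FPKM (log2 change -0.38, adjusted p = 0.0122), and lost its call without control library 3. The cofactor genes Ssbp2 and Ssbp3, whose proteins stabilise LDB1, were the higher ones, by 0.20 and 0.22 on the log2 scale (adjusted p = 0.0129 and 0.0255). The call of Ssbp3 was lost without control library 1, 2 or 3, and that of Ssbp2 without control library 2 or 3.

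At passage 6 Lyl1 (1.06 ± 0.0527 against 1.37 ± 0.110 FPKM, adjusted p = 0.122), Cbfa2t3 (5.19 ± 0.387 against 5.50 ± 0.201 FPKM, adjusted p = 0.468) and Tal1 (3.28 ± 0.462 against 3.05 ± 0.279 FPKM, adjusted p = 0.61) did not pass. Lyl1 was still below the controls in every experimental library, with an unadjusted limma p under 0.05. The passage 6 change differed from the passage 1 change in each, by 0.89 in Lyl1 (adjusted p = 0.0023), 0.79 in Cbfa2t3 (adjusted p = 0.000272) and 0.45 in Tal1 (adjusted p = 0.039). Of 13019 genes 14.7% passed that test. The 3 genes are named for their passage 1 calls, and those values enter the difference, which favours a smaller change at passage 6. Nothing is read from their number beside that share. Of the 13 tested, Ldb1 was lower at passage 6 (32.3 ± 1.84 against 42.0 ± 0.687 FPKM, adjusted p = 0.00583) and Gata2 was higher (log2 change 0.29, adjusted p = 0.0169). The median of the 13 was -0.004, and of all genes 10.8% were called lower and 8.98% higher. Neither the call of Ldb1 nor that of Gata2 held with the colon covariate (adjusted p = 0.0546 and 0.148). The call of Gata2 was also lost without control library 1, 2 or 3. Gata1 and Runx1, which mark blood cells, were at no more than 0.0457 and 0.0631 FPKM in any library.

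**Figure D3:**
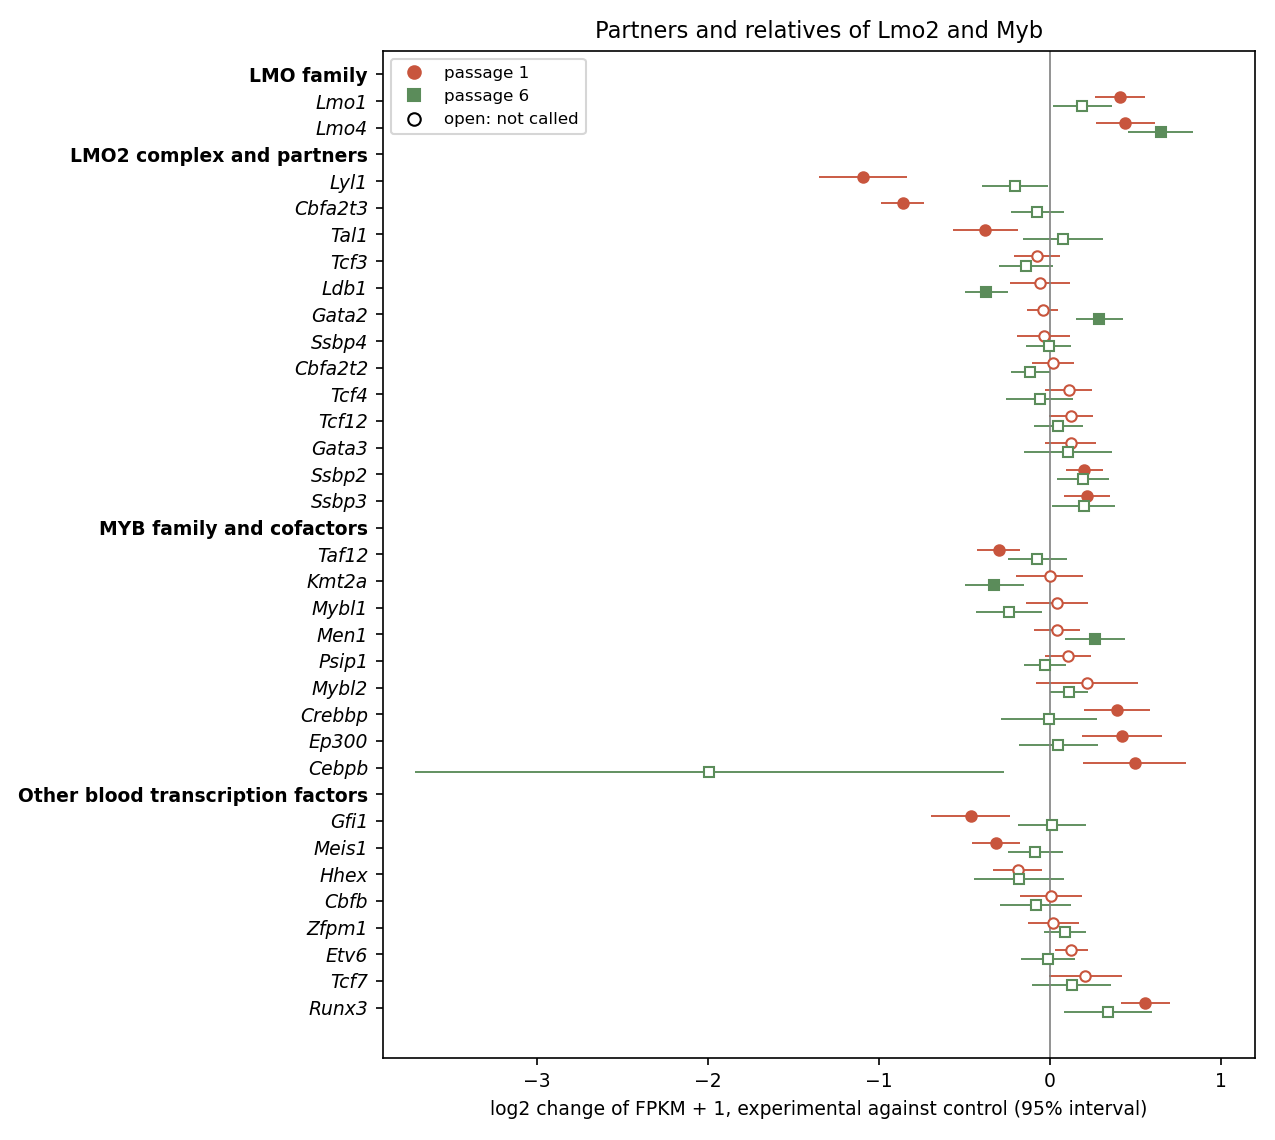
log2 change of FPKM + 1, experimental against control, with 95% intervals, for tested relatives and partners of Lmo2 and Myb and other blood transcription factors (circles, passage 1; squares, passage 6; filled, adjusted p under 0.05). Lyl1 and Cbfa2t3 lie lowest at passage 1, at -1.09 and -0.86, and Cebpb has the widest interval, at passage 6.

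Mybl1 and Mybl2, the other MYB genes, were not called at either passage. Mybl2, a cell cycle regulator, averaged 22.4 ± 4.21 against 18.9 ± 0.444 FPKM at passage 1 (adjusted p = 0.237), and Mybl1 averaged 3.98 ± 0.438 against 3.83 ± 0.123 FPKM (adjusted p = 0.712). Of 9 tested genes of the family and its cofactors 3 were higher and 1 lower at passage 1, with a median log2 change of 0.11. Of all genes, 11.5% were called higher and 18.9% lower. The higher ones were the acetyltransferase coactivators Crebbp (4.92 ± 0.590 against 3.49 ± 0.185 FPKM, adjusted p = 0.0108) and Ep300 (9.16 ± 1.34 against 6.53 ± 0.371 FPKM, adjusted p = 0.0164), and Cebpb (24.8 ± 4.65 against 17.1 ± 1.25 FPKM, adjusted p = 0.024), a partner of MYB in myeloid cells. The lower one was Taf12 (log2 change -0.30, adjusted p = 0.006). In the 5 passage 1 libraries with cartilage transcripts none of these 4 calls held.

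At passage 6 Kmt2a was lower (log2 change -0.32, adjusted p = 0.0244) and Men1 higher (log2 change 0.27, adjusted p = 0.0444), both chromatin cofactors. Each lost its call without control library 1 or 2, and Kmt2a also without control library 3.

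Genes known as MYB targets in blood cells had no common direction. Of 9 tested at passage 1, 2 were higher and 3 lower, beside 11.5% and 18.9% of all genes, with a median log2 change of 0.04. At passage 6, 1 was higher and 0 lower by limma, also at an unadjusted p under 0.05 (median 0.02). Of all genes, 8.98% were called higher and 10.8% lower there. At passage 1 Myc (92.8 ± 7.80 against 70.9 ± 3.92 FPKM, adjusted p = 0.00667) and the mitotic cyclin gene Ccnb1 (97.8 ± 8.56 against 70.5 ± 1.42 FPKM, adjusted p = 0.00241) were higher. The transporter gene Slc16a6 (6.58 ± 0.847 against 11.2 ± 0.396 FPKM, adjusted p = 0.00136), the repressor gene Gfi1 (1.48 ± 0.264 against 2.4 ± 0.221 FPKM, adjusted p = 0.0113) and the chaperone gene Hspa8 (log2 change -0.33, adjusted p = 0.00156) were lower. Hspa8 was the gene called higher at passage 6 (log2 change 0.22, adjusted p = 0.018), a call lost without control library 1, 2 or 3 and with the colon covariate (adjusted p = 0.0915). Kit and Cd34, further listed targets and stem cell markers, had at most 0.238 and 0.346 FPKM.

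Most other transcription factors of blood were scarcely expressed: 18 of 28 listed stayed below 1 FPKM in every library, with at most 0.119 FPKM of the myeloid factor gene Spi1 and 0.0243 FPKM of the lymphoid factor gene Ikzf1. Of 8 tested at passage 1, Runx3 was higher (2.76 ± 0.125 against 1.55 ± 0.0792 FPKM, adjusted p = 0.000733) and Gfi1 and Meis1 (2.62 ± 0.171 against 3.50 ± 0.129 FPKM, adjusted p = 0.00785) were lower, with a median log2 change of 0.02. Of all genes, 11.5% were called higher and 18.9% lower at that passage. At passage 6, 0 of 8 were called by limma, and 1, Runx3, had an unadjusted p under 0.05 (adjusted p = 0.067). Of all genes, 19.8% were called there.

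Partners of GRAP2 in T cell receptor signalling differed in level. Of 24 listed genes 13 stayed below 1 FPKM throughout, among them its binding partners Lcp2 (SLP-76, at most 0.0911 FPKM) and Lat (at most 0.645 FPKM), the kinase gene Zap70 (at most 0.0766 FPKM) and the receptor chain gene Cd3e (at most 0.0906 FPKM). Other listed partners were well expressed, with Map4k1 at 9.08 to 11.6 FPKM and Usp8 at 11.5 to 21.8 FPKM over all libraries. Of 11 tested at passage 1, the exchange factor gene Vav3 (5.43 ± 0.612 against 3.85 ± 0.173 FPKM, adjusted p = 0.00804) and the adaptor gene Shc1 (adjusted p = 0.045) were higher, and the call of Shc1 held in 10 of 20 other settings, with the colon covariate giving an adjusted p of 0.147. The kinase genes Lck (5.97 ± 0.776 against 7.40 ± 0.300 FPKM, adjusted p = 0.0439) and Fyn (11.8 ± 1.26 against 14.3 ± 0.678 FPKM, adjusted p = 0.0355) were lower, and each lost its call under 3 other scalings of the libraries. These 2 higher and 2 lower genes of passage 1 stood beside 11.5% and 18.9% of all genes. At passage 6, 0 of 11 were called by limma and 2 had an unadjusted p under 0.05, with medians of -0.001 at passage 1 and -0.06 at passage 6. Of all genes, 19.8% were called at passage 6. Grb2, the ubiquitous member of the adaptor family, was at 36.8 ± 1.5 against 34.9 ± 1.32 FPKM at passage 1 (adjusted p = 0.281) and 19.1 ± 1.36 against 19.7 ± 0.728 FPKM at passage 6 (adjusted p = 0.626), and Grap stayed at or below 0.197 FPKM.

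The ligand and partner of PROCR were scarce: Proc, which encodes protein C, had at most 0.470 FPKM, and Thbd, the thrombin receptor that activates it on endothelium, at most 0.337 FPKM. Of 8 tested genes of the protein C and thrombin pathway at passage 1, 2 were lower and 1 higher, with a median log2 change of 0.13. Of all genes, 18.9% were called lower and 11.5% higher. F2rl2, the thrombin receptor PAR3, was lower at passage 1 (21.0 ± 1.49 against 38.8 ± 1.37 FPKM, adjusted p = 0.00011) and at passage 6 (40.1 ± 0.895 against 59.0 ± 1.42 FPKM, adjusted p = 0.00136). Gas6, a relative of protein S, was lower at passage 1 (4.43 ± 0.755 against 8.64 ± 0.450 FPKM, adjusted p = 0.00131) and not called at passage 6 (adjusted p = 0.952). F3, the tissue factor that starts clotting, was higher at passage 1 (9.83 ± 2.20 against 5.59 ± 0.0901 FPKM, adjusted p = 0.00983) and at passage 6 (12.2 ± 0.638 against 8.05 ± 0.207 FPKM, adjusted p = 0.00225).

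At passage 6, 3 of 9 tested genes of that pathway were higher and 2 lower, with a median log2 change of -0.02. Of all genes, 8.98% were called higher and 10.8% lower. Beside F3 the higher ones were F2r, the thrombin receptor PAR1 (log2 change 0.39, adjusted p = 0.00802), and Pros1, protein S (1.78 ± 0.267 against 1.10 ± 0.121 FPKM, adjusted p = 0.0338). Beside F2rl2 the lower one was Plat, tissue plasminogen activator (log2 change -0.35, adjusted p = 0.00912). The calls of F2r, Pros1 and Plat did not hold with the colon covariate (adjusted p = 0.0614, 0.437 and 0.0966). F2r kept its call in 18 of 19 other settings, Plat in 17 of 19 and Pros1 in 9 of 18. That of Pros1 was also lost without any 1 of the control libraries and without experimental library 2 or 3.

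The integrin that binds ICAM2 was scarce, with Itgal and Itgb2 at no more than 0.253 and 0.508 FPKM. Its membrane linkers were well expressed. Actn4, an actin crosslinker, was higher at passage 1 (58.8 ± 3.30 against 45.6 ± 0.137 FPKM, adjusted p = 0.00211) and at passage 6 (68.1 ± 6.78 against 53.9 ± 0.793 FPKM, adjusted p = 0.0238). Moesin (Msn) was higher at passage 6 (22.6 ± 1.05 against 19.5 ± 0.180 FPKM, adjusted p = 0.0322). These were 1 and 2 of 5 tested genes, with medians of 0.09 and 0.20, beside 11.5% and 8.98% of all genes called higher. Both passage 6 calls were lost without any 1 of the control libraries. Icam5, of neurons, was tested at passage 6 (2.61 ± 1.44 against 0.999 ± 0.0923 FPKM, adjusted p = 0.122). Its values were 3.37 and 3.51 FPKM in experimental libraries 2 and 3, which carried the liver and myelin transcripts, and 0.947 FPKM in library 1, within 0.907 to 1.09 FPKM of the controls.

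The nearest tested neighbours of the 5 genes on their chromosomes varied among themselves. The 5 were chosen for their drop and the neighbours were not, so that the neighbours fell less is set by the choice. Beside Lmo2, neither Caprin1 (log2 change -0.02, adjusted p = 0.802) nor Fbxo3 (-0.10, adjusted p = 0.142) was called at passage 1, at distances of 160 and 45.8 kb. Beside Myb, Ahi1 fell by 0.23 (adjusted p = 0.0226) and Hbs1l by 0.40 (adjusted p = 0.000998). Beside Grap2, Cacna1i was not called (-0.24, adjusted p = 0.153) and Tnrc6b rose by 0.23 (adjusted p = 0.0144). Beside Procr, Edem2 fell by 0.52 (adjusted p = 0.00097), 21.6 kb away, and Mmp24 was not called (-0.10, adjusted p = 0.304). Beside Icam2, Gh fell by 0.27 (adjusted p = 0.0236) and Ern1, 6.58 kb away, by 0.36 (adjusted p = 0.0103). The calls of Ahi1 and Gh were lost when libraries were scaled to equal totals or by median of ratios.

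At passage 6 the neighbours called lower were Hbs1l (log2 change -0.28, adjusted p = 0.012) and Cacna1i (-0.40, adjusted p = 0.0127), and Mmp24 was higher (0.30, adjusted p = 0.0284). The other 7 were not called. The calls of Hbs1l and Mmp24 were lost without control library 1, 2 or 3, and that of Cacna1i without control library 1 or 2. Genes that overlap a member on the chromosome had at most 0.537 FPKM.

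**Figure D4:**
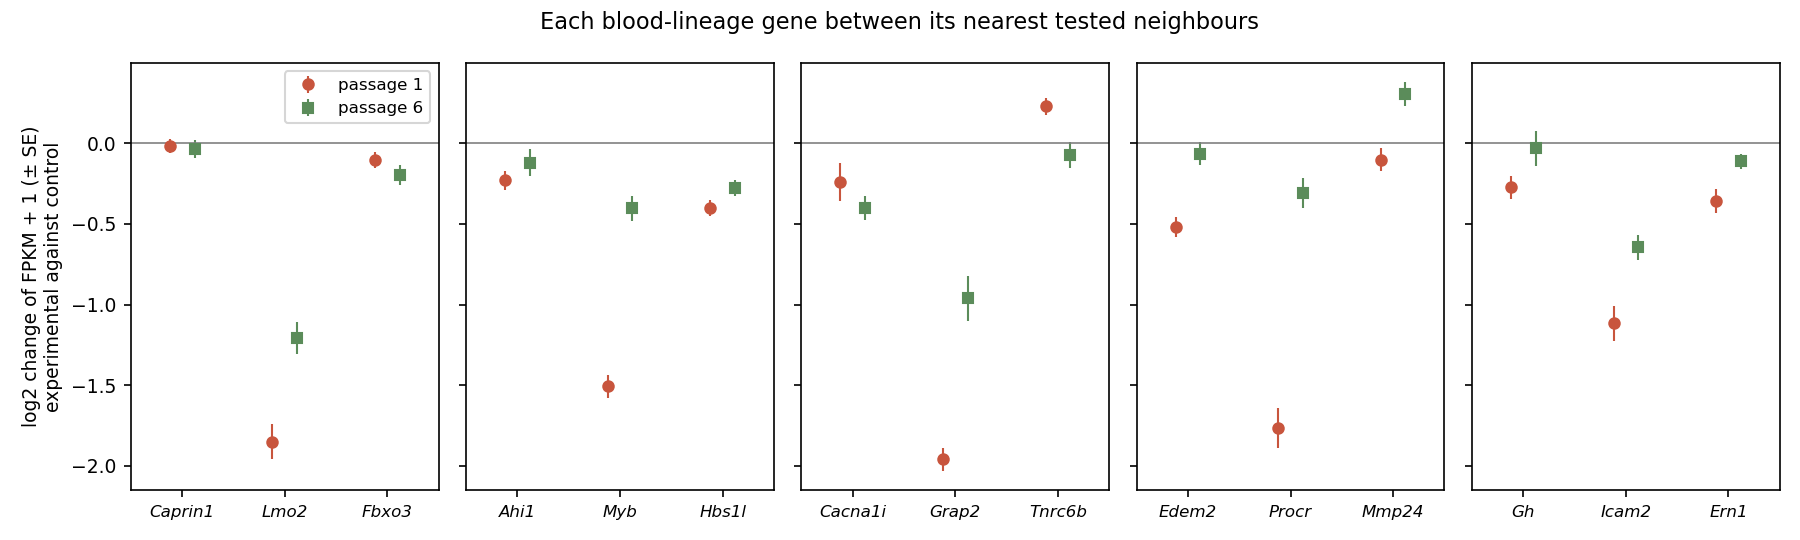
log2 change of FPKM + 1, experimental against control (± SE), of each gene and its nearest tested protein-coding neighbours in chromosome order, at passage 1 (circles) and passage 6 (squares). The middle genes were chosen for their drop. Among the neighbours the passage 1 values run from -0.52 in Edem2 to 0.23 in Tnrc6b.

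Genes that followed the 5 most closely over the 13 libraries were taken from 6204 protein-coding genes with a mean of at least 5 FPKM in each table, as a description. Closest to Lmo2 were Lnp1 (r = 0.988), Mtfp1 (0.983) and Icam2 itself (0.982), and closest to Grap2 were Lnp1 (0.986), Cbx2 (0.982) and Mtrr (0.979). Lnp1, named as a fusion partner of NUP98 in leukaemia, averaged 1.25 ± 0.340 against 10.8 ± 1.36 FPKM at passage 1 and 2.59 ± 0.843 against 8.42 ± 0.514 FPKM at passage 6. Closest to Icam2 were Hbs1l (0.985), the neighbour of Myb, Cbx2 (0.984), a Polycomb gene, and Cnot8 (0.983).

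Closest to Myb were the lipid phosphatase gene Sgpp1 (r = 0.987), the ubiquitin ligase gene Neurl3 (0.986) and the mitochondrial serine carrier gene Sfxn1 (0.984). Neurl3 averaged 9.04 ± 0.263 against 18.8 ± 0.945 FPKM at passage 1 and 14.4 ± 0.757 against 16.8 ± 0.348 FPKM at passage 6. Closest to Procr were the lysosomal protease gene Ctsd (0.991), Lgals3bp (0.987) and Madd (0.980). Ctsd averaged 387 ± 22.2 against 590.0 ± 11.2 FPKM at passage 1 and 961 ± 67.1 against 1074 ± 18.4 FPKM at passage 6.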

How the data were processed

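RNA of Neuro2a cells was sequenced in 13 libraries, and for each passage the authors deposited a table of FPKM. The submitters' processing notes name mm10 and the tools HISAT2, StringTie, cutadapt, edgeR and DESeq2. Versions, and how FPKM were scaled between libraries, are not given in the sources used here. Per the labels' protocols, RNA had an integrity number above 7.0 and libraries were poly(A)-selected and stranded. Of 34857 identifiers 34730 matched a symbol of the GRCm38 annotation (GENCODE M21), after 1 gene with an empty cell was left out, and 1212 were at 0 throughout. FPKM hold no read counts, so depth is unknown and precision comes from the spread between libraries. The most frequent ratio of low values placed relative depth at 0.82 to 1.1 of control library 2 at passage 1 and 0.914 to 1.05 at passage 6.

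For each passage limma 3.58.1 (R 4.3.3; trend, two-sided, Benjamini-Hochberg threshold 0.05) was fitted to log2(FPKM + 1) of genes that reached 1 FPKM in 3 or more libraries. Fold changes on this scale understate the change of low genes. A gene is called where its adjusted p passes. The difference between passages was a contrast over all libraries. The tables were deposited separately, so levels were not tested across passages. The fit was tested on simulated data. The labels do not say whether replicate numbers pair the libraries, and they were fitted unpaired. Deviations of same-numbered libraries correlated between -0.192 and 0.239, and those of differently numbered ones between -0.354 and 0.263. With so few libraries this cannot decide whether any share a source.

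The members and lists were chosen with earlier results of these data known, passage 6 included, so no p-value is given for a member, also where a test had been planned at passage 6. Named genes were the members, every tested family relative, up to 4 called genes per list by size (or the 2 with the highest FPKM), the nearest tested neighbours within 500 kb and the 3 most similar genes per member. Erg, Eng and the listed genes given for their maximum or beyond the first 4 of a list, were chosen after their values were seen. Python 3.11.15, pandas 2.3.3, numpy 2.4.6 and matplotlib 3.10.9 made tables and figures.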

Additional observations from a re-analysis of the deposited data

Results flagged for a closer look

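Among 78 genes described here, 4 had an experimental library of passage 1 far from the other 3, where about 5% would by chance, and it was library 4 each time. The number flagged is close to that share, so nothing is read from it. Myb had 2.05 FPKM there, against 2.55 to 2.58 FPKM in the other 3 libraries. The other 3 genes were cartilage markers, whose low sum in library 4 is given above. Col2a1 had 0.32 FPKM against 14.3 to 15.9 FPKM, Col9a1 0.029 FPKM against 1.5 to 1.7 FPKM, and Comp 0.319 FPKM against 1.72 to 1.9 FPKM.

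For 26 of the 73 named genes other than the members, the experimental change at passage 6 differed from that at passage 1 by limma's contrast over all libraries, where 14.7% of all 13019 genes passed. Many of the named genes were picked for being called at 1 passage or for following the members, which raises this count. Values below are the passage 6 change minus the passage 1 change on the log2 scale. Among partners and listed targets of LMO2 and MYB these were Lyl1 (0.89), Cbfa2t3 (0.79), Tal1 (0.45), Slc16a6 (0.76), Gfi1 (0.47), Ccnb1 (-0.53) and Myc (-0.58), with adjusted p from 0.000272 to 0.039. Among genes of T cell receptor signalling, the thrombin pathway and endothelium they were Vav3 (-0.47), F2rl2 (0.31), Gas6 (0.82), Plvap (-0.64) and Ecscr (-0.42), with adjusted p from 0.0153 to 0.0393. Among neuronal markers they were the neurofilament gene Nefh (1.2), Chgb (0.79), the oncogene Mycn (-0.82) and Dbh (-0.86), with adjusted p from 0.000189 to 0.00954. Mycn averaged 14.5 ± 0.510 FPKM in experimental and 7.69 ± 1.05 FPKM in control libraries of passage 1, and 8.24 ± 1.72 and 8.0 ± 0.583 FPKM at passage 6.

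The neighbours Tnrc6b (-0.30), Edem2 (0.46) and Mmp24 (0.41) passed with adjusted p from 0.00903 to 0.0392. The similar genes Lnp1 (0.98), Sgpp1 (0.61), Neurl3 (0.76), Sfxn1 (0.42), Ctsd (0.45), Lgals3bp (0.39) and Madd (0.36) passed with adjusted p from 0.000207 to 0.0118, and were selected for following the members.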

How the results depend on the processing

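The 5 members kept their direction at both passages under every alternative run. Myb could not be fitted at passage 6 at a minimum of 5 FPKM. At passage 1 a pseudocount of 0.1 gave -2.24 in Lmo2, -1.81 in Myb and -2.34 in Grap2, and 5 gave -1.09, -0.89, -1.18, -1.46 in Procr and -0.90 in Icam2.

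The genes changed at passage 1 numbered 3792, against 1029 in cartilage-carrying libraries and 2173 to 4058 with 1 library left out (2175, 2173 and 2183 without control library 1, 2 or 3). At passage 6 they numbered 2462, against 900 with the colon covariate, 1286 without a filter and 723 to 4296 with 1 library left out (836, 723 and 777 without control library 1, 2 or 3, 4296 and 1609 without experimental library 1 or 3). The share of calls that were higher at passage 1 was 37.8%, and 48.8%, 51.2% and 50.2% with equal totals, median of ratios and quantile normalization. The difference between passages numbered 1918, and 1818 to 2084 under its alternatives.

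Called genes of the 10 pathway lists numbered 26 at passage 1, against 10 in cartilage-carrying libraries and 19 to 28 with 1 library left out. At passage 6 they numbered 13, against 20 with array weights, 4 with the colon covariate, 8 without a filter and 5 to 23 with 1 library left out. With the replicate number as a block, which the labels do not tie to a shared source, 1813 and 1438 genes changed and 17 and 7 listed genes were called. The cause of these shifts was not tested. Some of these settings also changed how many libraries or genes entered a fit.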

Other observations

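Cebpb, called higher at passage 1, had 14.4, 0.821 and 1.23 FPKM in the experimental libraries of passage 6, against 15.0, 14.9 and 14.3 FPKM in the control libraries. Experimental libraries 2 and 3, which carried the liver and myelin transcripts, lay far below the other 4 libraries, and the change did not pass (limma adjusted p = 0.0975).

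Erg, an ETS factor gene of endothelium and blood stem cells, stayed below the filter. It had 0.163, 0.175, 0.251 and 0.200 FPKM in the experimental libraries of passage 1, against 1.03, 1.09 and 0.946 FPKM in the control libraries. At passage 6 it had 0.296, 0.323 and 0.364 FPKM in the experimental libraries, against 0.494, 0.619 and 0.441 FPKM in the control libraries. The groups did not overlap at either passage, and the gene was not tested.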
